A study of Danio rerio with 16 samples.

Results

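Zebrafish (Danio rerio) RNA was compared between 2 stages of development, in 3 arrays of embryos at the 12-somite stage that had been injected with a control RNA and in 3 arrays of wild-type animals at the stage labelled 36 h. The arrays were chosen by title, as the arrays titled Control_12_som, with label numbers 1 to 3, and the wild-type arrays with label numbers 4, 5 and 6. They are 6 of the 16 arrays of a study of the foggy mutant, whose gene, supt5h, encodes a subunit of DSIF, which travels with RNA polymerase II and controls its elongation. The study's other arrays are a wild-type array at 36 h with label number 1, 6 arrays at 36 h labelled as foggy mutants and 3 arrays of 12-somite embryos injected with an RNA named Foggy(DelCter). The genotype of the injected embryos, the fish strains, what the control RNA was and how many embryos went into a sample are not in the labels.

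Stage is not the only thing that differs between these groups. The descriptions call the 12-somite material injected embryos and the 36 h material embryonic brain, while 1 shared source entry names brain and adrenal medulla for all 16 samples. The early group was injected and the late group was not described as injected. Stage, material and injection cannot be told apart in these 6 arrays, and every difference below is a difference between the groups as labelled. The titles do not say which arrays were run together. No label states whether the arrays of a group hold separate clutches, so the p-values speak of the spread among these 6 samples, which may be technical only.

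At the 12-somite stage a zebrafish embryo is still laying down its body axis. Cells leave the tailbud, pass through the presomitic mesoderm, where a segmentation clock of oscillating her and delta genes runs under Fgf and Wnt signals, and form somites in head-to-tail order. By 36 h segmentation is over, the heart beats, embryonic red cells circulate, trunk muscle contracts, pigment cells carry pigment and the first neuron populations have grown axons, while the yolk cell still feeds the embryo and secretes lipoproteins from its syncytial layer.

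The arrays gave 1 value for each of 15502 probe sets other than control probe sets, as a linear intensity that had been scaled to the same trimmed mean of 150.04 units in every array. Array medians were 49.9 to 51.3 units at 12 somites and 49.7 to 53.1 units at 36 h. Over all probe sets, log2 levels correlated with r of 0.985 to 0.987 among the 12-somite arrays, 0.984 to 0.992 among the 36 h arrays and 0.881 to 0.916 between the groups, given as descriptions. The 17 unused tag control probe sets, which have no zebrafish target, reached 23.9 units in the 12-somite arrays and 15.4 units in the 36 h arrays. A group mean inside that range was read as not above background, and the change is then given as at least so many fold, against the highest tag control of that group's arrays.

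The labelled tissue was checked against markers, of which apoa1a, hoxc8a and snap25a are printed here for wild-type array 1. apoa1a, an apolipoprotein gene of the yolk syncytial layer and liver, read 11121, 11481 and 9955 units in wild-type arrays 4, 5 and 6, but 38.6 units in wild-type array 1. hoxc8a, a trunk Hox gene, read 377, 411 and 521 units in arrays 4, 5 and 6 and 7.16 units in array 1. snap25a, which encodes a synaptic vesicle fusion protein, read 249, 222 and 359 units in arrays 4, 5 and 6 and 1410 units in array 1. So the 3 arrays used here carry transcripts of yolk layer, muscle and trunk, which are not parts of the brain, at levels far above array 1. Summed over 66 genes of yolk layer, liver and gut, intensity was 99041 to 100833 units in arrays 4 to 6, 50545 to 55783 units at 12 somites and 8001 units in array 1. The sum over 58 skeletal muscle genes was 82267 to 115164 units in arrays 4 to 6 and 15002 units in array 1, and that over 30 synaptic genes was 1559 to 2290 units against 11086 units. Other lists outside the nervous system went both ways. Over 59 cartilage, bone and matrix genes the sum was 21082 units in array 1 and 13349 to 18617 units in arrays 4 to 6. Over 23 pancreas genes it was 4219 units against 848 to 1027 units. Over 31 red blood cell genes it was 11277 units against 24668 to 29247 units. The sums over 49 epidermal genes were 41868 units and 54113 to 57414 units. Array 1 is not taken as pure brain, and its muscle sum was not far below the 16669 to 19187 units at 12 somites. It also differed as an array, with a median of 65.9 units and tag controls up to 32.5 units, beside 15.4 units in arrays 4 to 6. The log2 ratio of its 3' to 5' GAPDH control signals was 0.84, beside 0.52 to 0.61. Its log2 levels correlated with those of arrays 4 to 6 with r of 0.858 to 0.872. How far this enters the comparison was not tested. Nervous system lists did not all follow the synaptic one. Over 19 glial genes the sum was 13729 to 14662 units in arrays 4 to 6 and 10457 units in array 1. Over 41 progenitor and Notch genes it was 12093 to 12387.5 units against 13946 units, and over 44 neuronal differentiation genes 9484 to 10532.5 units against 28025 units. Because of its yolk layer, muscle and trunk transcripts, the group is called the 36 h wild-type arrays 4 to 6 and not brain. In bulk RNA of this kind, fewer cells of a type and less RNA per cell cannot be told apart.

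Array 6 stood apart from arrays 4 and 5 in part of the genome. It held the highest of the 3 values for 38.3% of all 8793 genes, but for 39 of 58 skeletal muscle genes, 35 of 59 cartilage and matrix genes and 34 of 49 epidermal genes. Lists of other tissues shared this. Array 6 was highest for 19 of 30 synaptic genes, 19 of 31 red blood cell genes and 9 of 12 genes of Hox paralog groups 5 to 8, among others. At the other end it was highest for 1 of 72 ribosomal protein genes, 5 of 47 ribosome biogenesis genes and 3 of 49 proteasome and chaperonin genes. It was also highest for all of the 15 largest rises, which were chosen on means that include it. Without it the number of rising or of falling genes in a list moved by 0 to 9 genes, and numbers that moved by over 1.5 times are given beside the list.

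In limma's moderated test, 2980 probe sets (19.2% of those tested) rose and 3668 (23.7%) fell at 36 h, at an adjusted p under 0.05. Of these, 1072 (6.92%) rose and 764 (4.93%) fell at least 2-fold. Of the 8793 genes read through their brightest probe set, 21.7% rose and 25.1% fell, 8.13% and 5.28% at least 2-fold, and the median log2 difference over all of them was -0.06. These shares are the background against which the gene groups below are read, since 46.8% of all genes changed in 1 direction or the other. The values of the 2 groups did not overlap at 53.8% of all probe sets, among them all 1836 that changed at least 2-fold. All log2 differences are on the scale of log2(intensity + 16), which understates the change of dim genes, and are given ± SE with 3 arrays a group.

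**Figure D1:**
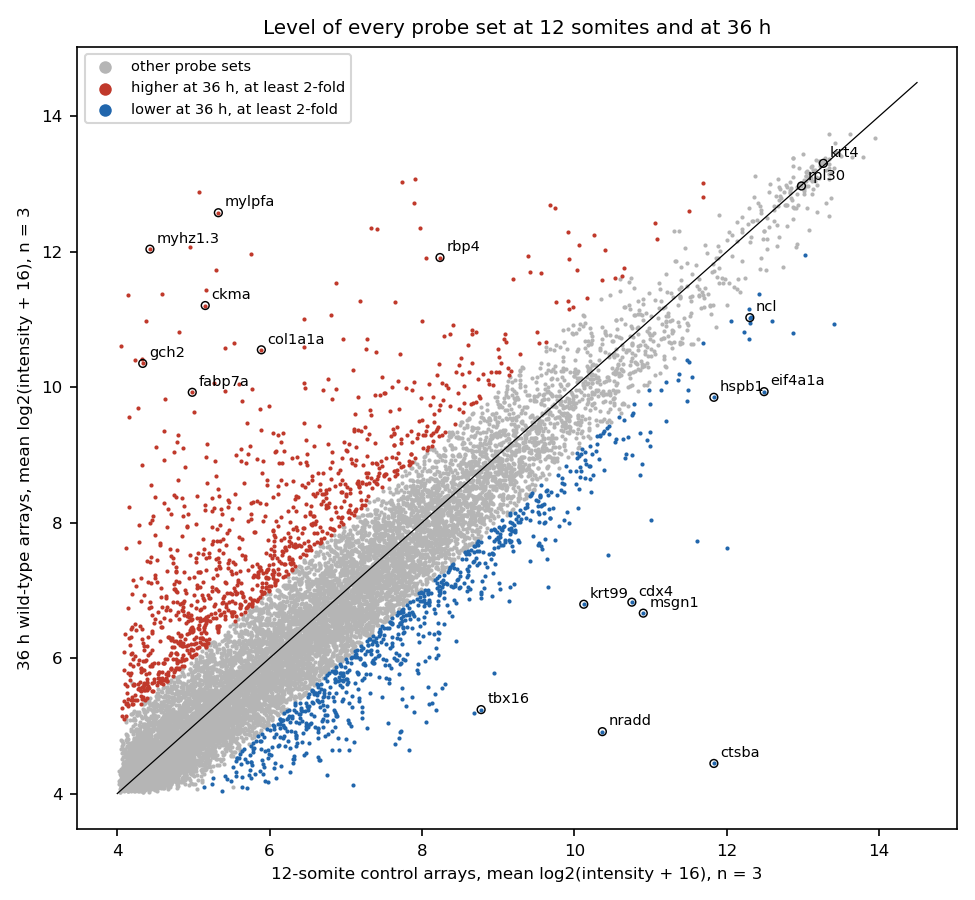
Mean log2(intensity + 16) of every probe set in the 3 control arrays at 12 somites (horizontal axis) and in wild-type arrays 4 to 6 at 36 h (vertical axis), with the line of equal level. Red points are the 1072 probe sets that rose and blue points the 764 that fell at least 2-fold at an adjusted p under 0.05. Circles mark genes named in the text, with ctsba far below the line and myhz1.3 and mylpfa far above it.

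The 15 largest falls included genes of the tailbud, an egg coat gene and a lysosomal protease gene. ctsba, which encodes the lysosomal protease cathepsin B, read 3494, 3397 and 3022 units at 12 somites and 11.2, 5.52 and 1.68 units at 36 h, at least 214-fold lower (adjusted p = 2.44e-08). nradd, a membrane protein gene related to the neurotrophin receptor with a death domain, read 1532, 1248 and 1107 units and then 23.4, 4.71 and 19.4 units. For both genes the late arrays were near the range of the tag controls, far below each early array. The next in size were msgn1 (-4.24 ± 0.32 on the log2 scale), cdx4 (-3.93 ± 0.20 on the log2 scale) and tbx16 (-3.54 ± 0.16 on the log2 scale), which are described with the tailbud below. krt99, a keratin gene, read 1174, 1016 and 1092 units at 12 somites and 124, 111 and 60.5 units at 36 h, and fn1b, a fibronectin gene of the early somite borders, went from 591, 462 and 417 units to 29.1, 32.2 and 62.0 units. snu13a, whose product binds snoRNAs and the U4 snRNA, fell from 228, 325 and 228 units to 17.1, 15.7 and 20.0 units. hsf1, the heat shock transcription factor gene, read 200, 224 and 181 units and later 10.5, 15.3 and 17.8 units, at least 13.05-fold lower. tbx6, mchr1b, which encodes a receptor for melanin-concentrating hormone, and tgm1l4, a transglutaminase gene, fell to background and were at least 12.3-fold, 8.02-fold and 12.7-fold lower. The remaining large falls were rad23b, a DNA repair and proteasome shuttle gene, egr2b and zp3.1, an egg coat gene, with log2 differences of -2.80 ± 0.19, -2.77 ± 0.11 and -2.70 ± 0.15. At these 15 genes every 12-somite array was above every 36 h array, as the rule for naming them required.

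Genes of the segmentation clock and presomitic mesoderm were mostly lower at 36 h. Of 28 measured members, 21 fell and 2 rose at an adjusted p under 0.05, 15 of them falling at least 2-fold, with a median log2 difference of -1.09 beside -0.06 over all genes. Without array 6, 18 fell and 1 rose, and the median was -1.09, while 1 rose too without wild-type array 4 or 5 or control array 1 or 3. msgn1, a transcription factor gene that moves cells out of the tailbud into the presomitic mesoderm, read 1602, 2004 and 1890 units at 12 somites and 122.8, 116 and 40.8 units at 36 h (log2 difference -4.24 ± 0.32, adjusted p = 9.71e-06). All 3 late values were far below each early one in this gene, and array 6 was the lowest. tbx16, a T-box gene needed for trunk mesoderm, read 406, 468 and 417 units and then 24.8, 28.3 and 14.6 units (log2 difference -3.54 ± 0.16, adjusted p = 5.76e-07). Its close relative tbx16l read 257, 298 and 285 units and then 26.7, 34.3 and 26.0 units (log2 difference -2.70 ± 0.13, adjusted p = 7.55e-07). tbx6, a T-box gene that positions somite borders, read 188, 178 and 202 units at 12 somites and 3.77, 19.8 and 11.1 units at 36 h, at least 12.3-fold lower. In these T-box genes the early arrays lay close together. The late mean of tbx6 was in the background range. Late values of tbx16l were above the highest tag control of 15.4 units in each array, and those of tbx16 in arrays 4 and 5.

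The clock genes her7 and her1 fell to background or near it. her7, a core repressor of the clock, read 92.4, 99.9 and 99.5 units at 12 somites and 6.80, 21.8 and 2.25 units at 36 h, at least 6.30-fold lower (adjusted p = 6.88e-05). her1, its partner, read 48.0, 65.1 and 71.5 units and later 3.80, 7.58 and 1.14 units, at least 3.98-fold lower (adjusted p = 1.79e-05). Early and late arrays did not overlap in either gene, although the late values were spread widely. The late means lay in the background range, but her7 in wild-type array 5 was above it. The Notch ligand gene dlc was not called, at 164, 274 and 213 units and 170, 173 and 205 units. dld, a ligand gene used in the nervous system as well, was 0.35 ± 0.13, a call lost without control array 1 or 3 or wild-type array 4, 5 or 6 (adjusted p up to 0.137). The somite boundary genes mespba and mespaa fell from 64.2, 57.7 and 50.4 and 50.6, 27.4 and 40.5 units to means of 10.24 and 8.65 units. pcdh8, a protocadherin gene of the presomitic mesoderm, was at least 6.83-fold lower, and myf5, the earliest muscle determination gene, read 129, 164 and 118 units and then 15.3, 30.7 and 18.5 units.

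Of the signals that set the clock's front, fgf8a, the Fgf ligand of the posterior body, read 137, 181 and 133 units at 12 somites and 52.0, 57.8 and 43.3 units at 36 h (log2 difference -1.28 ± 0.16, adjusted p = 0.000168). il17rd, a feedback inhibitor of Fgf signalling, fell further, from 287, 299 and 279 units to 75.5, 71.5 and 57.3 units (-1.84 ± 0.13). spry4, another such inhibitor, was -0.64 ± 0.18, a call lost without control array 1 or 3 or wild-type array 4 or 6 (adjusted p up to 0.0659). wnt5b, a Wnt ligand of the tail, snai1a, a transcriptional repressor gene, and foxc1a, a somite transcription factor gene, had log2 differences of -1.01 ± 0.13, -1.26 ± 0.14 and -1.21 ± 0.13. epha4a, a boundary receptor gene, and hes6, a clock cofactor gene, were -0.99 ± 0.15 and -0.91 ± 0.13. aldh1a2, which makes retinoic acid, was -0.45 ± 0.16, a call lost without control array 1, 2 or 3 or wild-type array 6 (adjusted p up to 0.107), and cyp26a1, which degrades it, was not called (-0.01 ± 0.16). efnb2a, an ephrin gene, was -0.37 ± 0.12, lost without control array 1 or 3 or wild-type array 4 or 5 (adjusted p up to 0.1). nrarpa, a Notch feedback gene, was -0.36 ± 0.12, lost without control array 1 or 2 or wild-type array 4, 5 or 6 (adjusted p up to 0.086). notch1a, foxc1b and mef2d were not called, and bhlhe22, a neuronal repressor gene, had the larger of the 2 rises (0.79 ± 0.11).

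The tailbud, notochord and midline list showed the same order of change. Of 26 measured genes 17 fell and 2 rose, 11 of them falling at least 2-fold, with a median log2 difference of -0.77, and without array 6 these counts were 16 and 2. cdx4, a caudal gene that sets posterior identity, read 1529, 1858 and 1623 units at 12 somites and 119, 111 and 68.2 units at 36 h (log2 difference -3.93 ± 0.20, adjusted p = 1e-06). tbxta, the brachyury gene of tailbud and notochord, read 166, 227 and 205 units and then 39.1, 51.9 and 62.1 units (log2 difference -1.65 ± 0.16, adjusted p = 3.71e-05). noto, which keeps axial cells notochord rather than somite, read 95.1, 104 and 106 units and later 14.9, 29.7 and 15.6 units (log2 difference -1.73 ± 0.16, adjusted p = 3.38e-05). None of these 3 genes had overlapping groups, as at 53.8% of all probe sets, and cdx4 was the one with the widest gap. The ventral Bmp targets vox and ved, repressors of dorsal fate, read 773, 809 and 727 and 121, 144 and 111 units early and 155, 181 and 139 and 14.02, 14.1 and 6.25 units late. szl, which inhibits chordin-cleaving proteases, and chrd, the Bmp antagonist chordin itself, were at least 6.20-fold and 4.70-fold lower.

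The posterior genes cdx1a and vent were at least 2.89-fold and 2.90-fold lower and eve1 was -1.51 ± 0.18 on the log2 scale, and the ligand genes bmp7a and bmp2b had differences of -1.12 ± 0.13 and -0.71 ± 0.12. Midline genes were lower too. shha, the sonic hedgehog gene of notochord and floor plate, read 202, 287 and 242 units and then 107, 130 and 130 units (log2 difference -0.84 ± 0.15, adjusted p = 0.00153), and foxa and foxa2 were -0.88 ± 0.13 and -0.57 ± 0.11. col2a1a, the notochord sheath collagen gene, was -0.41 ± 0.15, a call lost without control array 1 or 3 or wild-type array 4 or 5 (adjusted p up to 0.162). nog2, a noggin gene, was in the background range in both groups, and its call was lost without control array 1 or 3 or wild-type array 4, 5 or 6 (adjusted p up to 0.104). shhb, bmp4, col8a1a, ntn1b, tll1, foxa3 and ihhb were not called, with ntn1b, tll1 and ihhb near background and the others from -0.50 ± 0.20 to 0.23 ± 0.14. ntn1a, a guidance cue of the floor plate, rose from 87.2, 67.1 and 76.2 units to 184, 174 and 177 units, and evx1, which marks spinal interneurons as well as the tail, rose at least 1.97-fold from background. Of the 6 hatching gland genes measured, agr2, which the epidermal list also holds, rose from 47.1, 39.9 and 43.0 units to 340, 351 and 557 units. tfap2a, klf17 and xbp1 were not called, at -0.19 ± 0.11, -0.03 ± 0.12 and 0.04 ± 0.12. ctsl.1, a cathepsin gene of the gland, was -0.52 ± 0.17, lost without control array 1 or 2 or wild-type array 5 or 6 (adjusted p up to 0.114), and cd63 was 0.44 ± 0.13, lost without control array 2 or 3 or wild-type array 5 or 6 (adjusted p up to 0.0805).

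**Figure D2:**
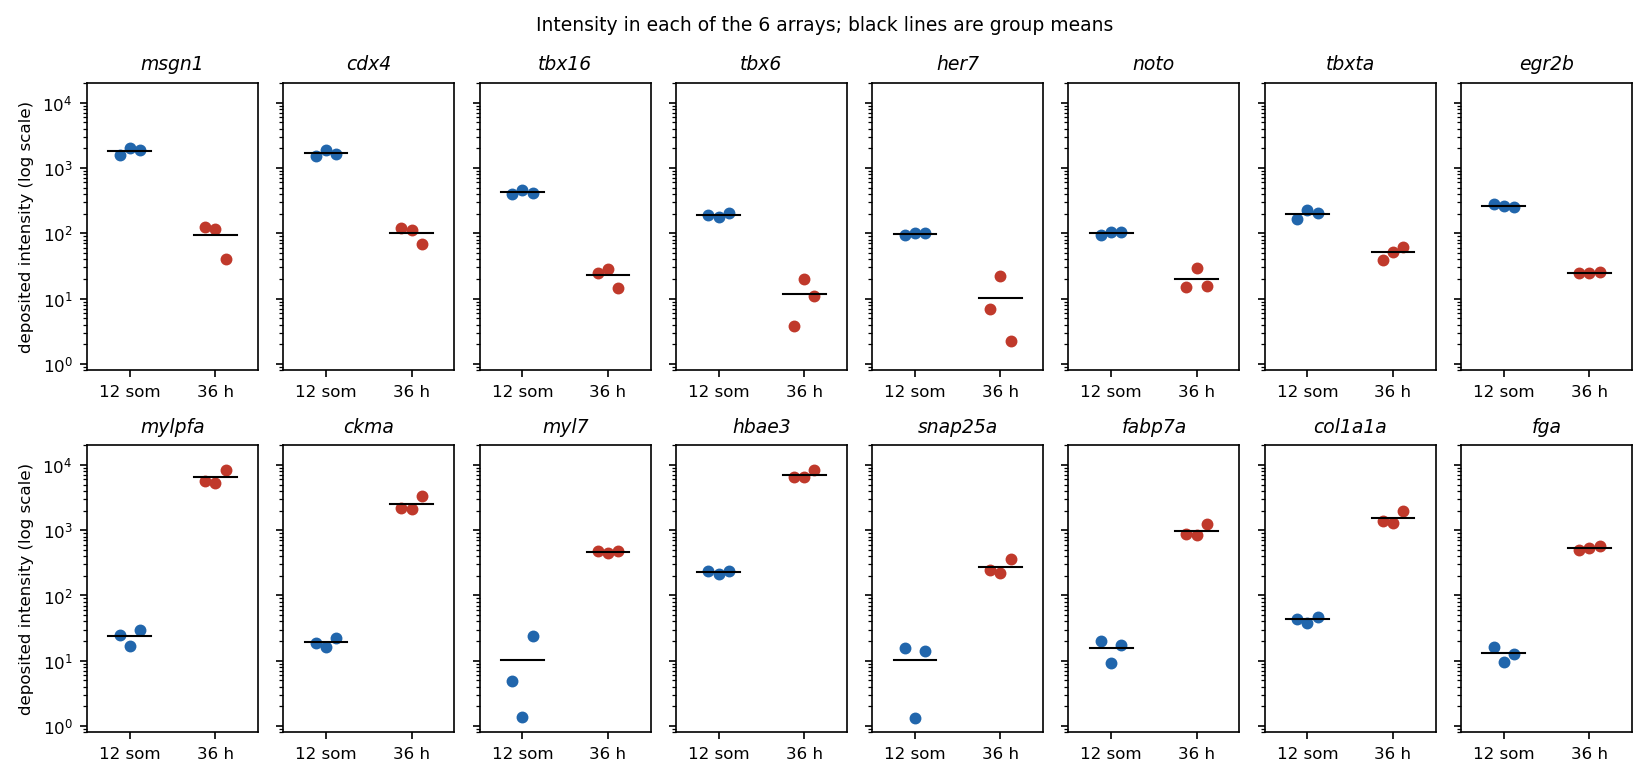
Deposited intensity of 16 genes in each of the 6 arrays on a log axis, with the 3 control arrays at 12 somites in blue, wild-type arrays 4 to 6 at 36 h in red and black lines for group means. The upper row shows genes of tailbud, presomitic mesoderm, notochord and hindbrain, which are lower at 36 h, and the lower row genes of muscle, heart, blood, synapse, glia, matrix and liver, which are higher. The groups are separate in all 16, as at 53.8% of all probe sets.

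Early transcription factors and egg coat transcripts also declined. Of 30 genes of pluripotency and early zygotic control, 16 fell and 5 rose, with a median of -0.40. irx7, foxd5 and sox19b, which act in the early neural plate, read 221, 223 and 260, 111, 179 and 121 and 205, 232 and 284 units at 12 somites. At 36 h they read 47.2, 46.0 and 31.8, 21.3, 21.4 and 15.16 and 66.2, 64.7 and 49.6 units. myca and klf2b went the other way, from 67.6, 63.5 and 53.7 units to 166, 216 and 184 units and from 60.6, 68.3 and 52.8 units to 194, 178 and 203 units. In the germ line and egg coat list, 7 of 11 genes fell and 1 rose, with a median of -0.78. The falls included the egg coat genes zp2.6, zp3a.2 and zp3b, which are made in the ovary, with early values of 274, 302 and 352, 93.6, 115 and 99.9 and 63.2, 50.4 and 54.2 units and late means of 36.4, 21.6 and 12.5 units. nanos3, a germ cell gene, was -1.21 ± 0.25, and its relative nanos1 rose (1.01 ± 0.16).

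Of the 39 gene lists, ribosome biogenesis had the highest share of falling members. Of 47 genes of ribosome biogenesis, 46 fell and none rose at an adjusted p under 0.05 in limma, 30 of them at least 2-fold, where 25.1% and 5.28% of all genes did so, and at an unadjusted p under 0.05 the number that rose was still 0. Their median log2 difference was -1.14, and without array 6 it was -1.03 with 41 falling. ddx52, an RNA helicase gene of small-subunit processing, read 334, 237 and 275 units at 12 somites and 46.1, 46.9 and 52.4 units at 36 h (log2 difference -2.18 ± 0.15, adjusted p = 4.98e-06). mybbp1a, a nucleolar protein gene, read 874, 752 and 880 units and then 218, 228 and 146 units (-2.01 ± 0.17). mphosph10, of the small-subunit processome, went from 404, 451 and 428 units to 103, 106 and 110 units (-1.82 ± 0.11). Early and late values were well apart in each. nop2 and ddx21, a nucleolar methyltransferase and a helicase gene, had log2 differences of -1.77 ± 0.18 and -1.75 ± 0.18. Also lower, among genes picked after their values were seen, were polr1b, of RNA polymerase I (-1.77 ± 0.17), ncl, the nucleolin gene (-1.28 ± 0.15), and fbl, the fibrillarin gene (-1.18 ± 0.14). polr2f, a subunit shared among the polymerases, was the list member without a call, at 354, 417 and 377 units and 391, 369 and 356 units.

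Few ribosomal protein genes were called. Of 72 measured, 5 rose and 1 fell, none by as much as 2-fold, and their median was 0.05. On the values as deposited the median was 0.17 and 11 rose, so the count depends on the scaling. It was 2 without control array 3 or wild-type array 5 and 3 without control array 1 or 2 or wild-type array 4, and without control array 1 or 3 or wild-type array 4 or 5 none fell. Among the 100 brightest genes of the arrays, the 6 nearest to no change were rps6, rpl30, rpl21, rps9, rps16 and rps24. Their log2 differences ran from -0.01 ± 0.11 to 0.01 ± 0.11. Many of the 100 are ribosomal protein genes, so nothing is read from the kind of these 6. rps6 read 8748, 8030 and 8200 units at 12 somites and 9498, 9675 and 8183 units at 36 h, with overlapping groups. rpl31 had the largest rise of the list (0.75 ± 0.14), and 4 of the 6 calls, those of rpl6, rpl14, rpsa and rps27l, were lost when single arrays were left out, with adjusted p up to 0.141.

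Of 78 splicing factor genes, 56 fell and 4 rose, 9 falling at least 2-fold, with a median of -0.54, and without array 6 the counts were 47 and 3. sf3b4, of the U2 snRNP, read 1143, 803 and 869 units and then 341, 338 and 159 units. hnrnpul1 and ptbp1b, RNA-binding protein genes, went from 1169, 1374 and 1178 and 1050, 1084 and 1031 units to 477, 487 and 440 and 388, 360 and 502 units. srsf6b, an SR protein gene, was the largest exception, rising from 480, 435 and 443 units to 744, 797 and 857 units (log2 difference 0.81 ± 0.12, adjusted p = 0.000569). Of 67 translation factor genes, 26 (38.8%) fell and 12 (17.9%) rose, beside 25.1% and 21.7% of all genes. Their median was -0.24, and 7 rose without wild-type array 4. eif4a1a, a helicase gene of translation initiation, fell from 5452, 5429 and 5707 units to 975, 1077 and 881 units, while its paralog eif4a1b rose from 314, 324 and 392.1 units to 1163, 1132 and 1335 units (log2 difference 1.78 ± 0.14, adjusted p = 1.01e-05). pabpc4, a poly(A)-binding protein gene, rose from 70.25, 57.1 and 72.3 units to 497, 570 and 389 units, and eif4bb fell (-1.54 ± 0.14).

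Of 66 cell cycle genes, 13 (19.7%) fell and 7 (10.6%) rose, shares below the 25.1% and 21.7% of all genes, with a median of -0.08. The 13 became 6 without wild-type array 4, 7 without wild-type array 6 or control array 2 or 3 and 8 without control array 1. mki67, the proliferation marker gene, was not called, at 802, 721 and 828 units and 806, 767 and 860 units. e2f4 and pole2 were -0.99 ± 0.15 and -0.87 ± 0.14, while tyms, the thymidylate synthase gene, was 0.93 ± 0.13. kif20a had the largest rise (2.41 ± 0.16), but other probe sets of the gene ran down to -0.11, so its change is uncertain. Of 33 histone and nucleosome genes 15 fell and 6 rose, among them npm1a, a histone and ribosome chaperone, which went from 4870, 4900 and 4268 units to 2532, 2665 and 2060 units. The list's median was -0.16, and -0.06 on the values as deposited, with 11 falling. Among 49 proteasome and chaperonin genes the largest difference was in psmb10, at least 4.25-fold lower. Of the 49, 8 (16.3%) fell and 2 (4.08%) rose, shares below the 25.1% and 21.7% of all genes, and their median was -0.17. Without wild-type array 6 these counts were 5 and 4, and without control array 2 or wild-type array 4 or 5 only 1 rose.

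supt5h, the gene mutated in foggy, was lower at 36 h. It read 436, 393 and 397 units at 12 somites and 197, 231 and 166 units at 36 h (log2 difference -0.93 ± 0.14, adjusted p = 0.000668), and the groups did not overlap. Of the 36 genes of transcription elongation that include it, 14 fell and none rose by limma, with a median of -0.26, while 1 rose at an unadjusted p under 0.05 and 1 was called without control array 2. eloa, the elongin A gene, and ccnt1, the cyclin of the elongation kinase P-TEFb, fell at least 2-fold, from 746, 665 and 754 and 257, 254 and 245 units to 247, 260 and 203 and 97.4, 101 and 80.8 units. polr2a, the largest subunit of RNA polymerase II, rtf1, of the PAF complex, and nelfa, of the pausing factor NELF, were -0.95 ± 0.16, -0.68 ± 0.12 and -0.62 ± 0.15. The histone chaperone gene ssrp1a was not called (0.36 ± 0.14).

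Mitochondrial respiratory chain genes rose together. Of 83 measured, 68 rose and none fell at an adjusted p under 0.05 in limma, 14 at least 2-fold, beside 21.7% of all genes rising and 8.13% rising 2-fold. At an unadjusted p under 0.05, 1 fell, and on the values as deposited 1 fell at the adjusted threshold. The median was 0.70, and without array 6 it was 0.73 with 64 rising. atp5mc1, the c subunit of ATP synthase, read 872, 815 and 826 units at 12 somites and 2552, 2506 and 2621 units at 36 h (log2 difference 1.50 ± 0.11, adjusted p = 8.17e-06). ndufa3, of complex I, went from 222, 173 and 207 units to 609, 581 and 589 units (1.52 ± 0.13). sdhdb, of complex II, went from 236, 213 and 194 units to 607, 606 and 636 units (1.50 ± 0.12). The 3 late arrays lay close together in each of these genes and well above the early ones. cox17, a copper chaperone of complex IV, was 1.63 ± 0.15 and cox6b1, a complex IV subunit, at least 6.37-fold higher. The ATP synthase inhibitor genes differed, atp5if1b rising (1.73 ± 0.16) and atp5if1a not called (-0.35 ± 0.17). Summed over the list, intensity was 62929 to 68852 units at 12 somites and 101739 to 103820 units at 36 h. In array 1, which differs in several ways given above, it was 78892 units.

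**Figure D3:**
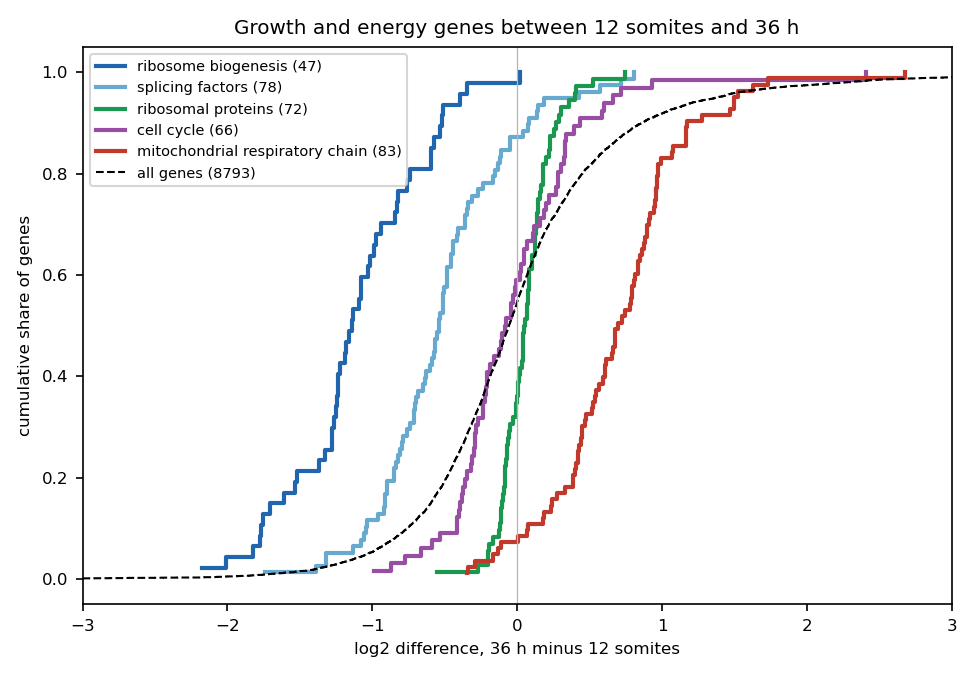
Cumulative share of genes by log2 difference (36 h minus 12 somites) for 47 ribosome biogenesis, 78 splicing factor, 72 ribosomal protein, 66 cell cycle and 83 respiratory chain genes, with all 8793 genes dashed. Ribosome biogenesis lies to the left with a median of -1.14, respiratory chain genes to the right with a median of 0.70, and ribosomal protein genes close to 0.

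The largest rises were in genes of fast skeletal muscle. Of 58 skeletal muscle genes, 43 rose and 3 fell, 41 rising at least 2-fold, with a median of 2.43, and without array 6 it was 2.04 with 45 rising. Of the 15 largest rises of all, 12 were in genes whose 12-somite mean lay in the background range. Their fold changes are given only as lower bounds. myhz1.3, a fast myosin heavy chain gene, read 9.59, 1.35 and 6.78 units at 12 somites and 3884, 3901 and 5749 units at 36 h, at least 188-fold higher (adjusted p = 5.82e-08). mylpfa, the fast regulatory light chain gene, went from 24.5, 17.1 and 30.1 units to 5680, 5354 and 8239 units, at least 268-fold higher. tnni2a.4, a fast troponin I gene, read 6.55, 6.84 and 1.15 units and then 1744, 1494 and 3573 units, at least 94.8-fold higher. Array 6 was the highest in each, while the 12-somite means were in the background range. On the log2(intensity + 16) scale, where the pseudocount sets the size of changes from background, the 15 largest rises were 5.12 to 7.61, and 4.94 to 7.36 without array 6.

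The contractile genes mylz3, myl1 and tnnt3a were at least 121-fold, 124-fold and 84.7-fold higher. pvalb2 and pvalb1, the calcium-buffering parvalbumin genes of fast fibres, were at least 156-fold and 72.2-fold higher, with pvalb1 at 864, 954 and 3372 units in the late arrays. atp2a1, the sarcoplasmic calcium pump gene, was above background at both stages, at 34.6, 23.6 and 31.6 units and 1456, 1687 and 1827 units (log2 difference 5.12 ± 0.14, adjusted p = 4.97e-08). Enzymes of muscle energy supply rose with them: ckma, a muscle creatine kinase gene, and pgam2, a glycolytic mutase gene, were at least 106-fold and 38.6-fold higher, while ckmb, the other creatine kinase gene, and ak1, the adenylate kinase gene, were 6.22 ± 0.19 and 5.16 ± 0.18 on the log2 scale. Of the upstream regulators, myf5 fell, as given above, myod1 was -0.70 ± 0.15 and myog was not called (0.62 ± 0.25). myod1 and myog were picked after their values were seen.

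Of 17 heart genes 5 rose and 5 fell, 29.4% each, beside 21.7% and 25.1% of all genes. The contractile genes myl7, cmlc1 and tnnt2a rose. myl7, the cardiac regulatory light chain gene, read 4.90, 1.37 and 24.3 units at 12 somites and 485, 442 and 474 units at 36 h, at least 19.5-fold higher (adjusted p = 3.1e-06). cmlc1, a cardiac essential light chain gene, went from 7.25, 16.4 and 9.02 units to 344, 299 and 309 units, and tnnt2a, the cardiac troponin T gene, from 17.9, 16.1 and 27.6 units to 95.7, 102 and 56.2 units. has2, a hyaluronan synthase gene of heart valve formation, fell to background, at least 3.18-fold lower.

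Several genes of haemoglobin and the red cell membrane rose. Of 31 red blood cell genes, 18 rose and 3 fell (5 without wild-type array 6), 12 rising at least 2-fold, with a median of 0.63. hbae3, an embryonic alpha globin gene, read 239, 210 and 237 units at 12 somites and 6434, 6422 and 8290 units at 36 h (log2 difference 4.83 ± 0.16, adjusted p = 1.09e-07). hbbe3, an embryonic beta globin gene, went from 167, 112 and 204 units to 4792, 4921 and 6809 units (log2 difference 4.93 ± 0.22, adjusted p = 5.76e-07). The late arrays were far above the early ones in both globin genes. slc4a1a, the red cell anion exchanger gene, and sptb, a spectrin gene of its membrane skeleton, were at least 16-fold and 6.49-fold higher. alas2, the first enzyme of haem synthesis, read 39.2, 16.3 and 28.3 units and then 248, 240 and 353 units. lmo2, a regulator of blood and vessel precursors, fell from 122, 115 and 162 units to 25.3, 26.8 and 26.3 units (log2 difference -1.81 ± 0.14, adjusted p = 1.01e-05), and gata1a, the master regulator of red cells, was not called (-0.25 ± 0.15). tal1, which like gata1a was picked after its values were seen, was -0.49 ± 0.15, a call lost without control array 1 or 2 or wild-type array 4 or 5 (adjusted p up to 0.091). Probes of globin copies may cross-hybridise, which was not tested.

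In the endothelium list 6 of 18 genes (33.3%) rose and 4 (22.2%) fell, beside 21.7% and 25.1% of all genes. Only 2 fell without control array 1 or wild-type array 4. aqp1a.1 and plvapb, a water channel gene and a gene of fenestrated vessels, were at least 13.3-fold and 6.72-fold higher, and kdrl, the Vegf receptor gene, was 0.68 ± 0.14. Of 44 myeloid and innate immune genes 16 (36.4%) rose and 5 (11.4%) fell, with a median of 0.30. Without control array 1 or 2 or wild-type array 6, 3 fell. lyz, the lysozyme gene of neutrophils and macrophages, was at least 8.94-fold higher, at 150, 173 and 319 units late. c9, a complement gene made in liver, went from 42.7, 19.2 and 32.2 units to 441, 477 and 567 units, and coro1a, a leukocyte actin regulator gene, from 61.2, 34.3 and 28.6 units to 125, 110 and 154 units.

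Many genes of postmitotic neurons rose. Of 44 neuronal differentiation genes, 26 rose and 3 fell, 17 rising at least 2-fold, with a median of 0.74. stmn1b, a tubulin regulator gene of neurons, read 25.6, 32.5 and 42.4 units at 12 somites and 475, 457 and 667 units at 36 h (log2 difference 3.46 ± 0.18, adjusted p = 1.04e-06). gap43, which encodes a growth cone protein, went from 24.4, 24.6 and 23.3 units to 199, 255 and 234 units (log2 difference 2.62 ± 0.13, adjusted p = 8.82e-07). gng3 and tuba2, a G protein gene and a neuronal tubulin gene, were at least 7.37-fold and 6.59-fold higher. The general neuronal marker elavl3 was above background at 12 somites and was not called, at 397, 364 and 341 units and 462, 466 and 428 units (adjusted p = 0.0515). Of 30 synaptic genes 15 rose and none fell by limma, with a median of 0.53, while 0 fell at an unadjusted p under 0.05 and 1 was called as falling without control array 1. snap25a read 15.7, 1.32 and 13.9 units early and 249, 222 and 359 units late, at least 11.5-fold higher, and sncb, the beta-synuclein gene, 64.4, 38.3 and 58.9 and 395, 399 and 586 units. The transporter genes slc18a3a, of cholinergic vesicles, and slc32a1, of inhibitory vesicles, rose from background to means of 85.6 and 50.8 units. tph2, of serotonin synthesis, was within the background range in all 6 arrays.

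Progenitor and Notch genes gave 14 rises (34.1%) and 7 falls (17.1%) among 41, beside 21.7% and 25.1% of all genes, with a median of 0.17. The proneural genes ascl1b and neurod4 rose: ascl1b went from 73.4, 78.6 and 65.6 units to 360, 326 and 345 units, and neurod4 from 47.2, 55.1 and 49.0 units to 183, 185 and 205 units. dlb, a Notch ligand gene of newborn neurons, rose from 133, 144 and 154 units to 462, 406 and 607 units, and atoh1a, of rhombic lip and hair cells, was at least 2.15-fold higher. cdh2, the N-cadherin gene of neural tube and somite, fell (log2 difference -1.53 ± 0.18, adjusted p = 0.000141). In the glial list 11 of 19 genes (57.9%) rose and 5 (26.3%) fell. Without control array 1 or 2 or wild-type array 5 or 6, 3 fell. fabp7a, a fatty acid binding protein gene of radial glia, read 20.2, 9.18 and 17.5 units and then 864, 850 and 1242 units, at least 41.1-fold higher (adjusted p = 2.06e-07). gja1b, a connexin gene, was at least 14.2-fold higher, and vim and gfap, intermediate filament genes, were 2.01 ± 0.13 and 1.16 ± 0.15. sox10, of neural crest and oligodendrocyte precursors, fell from 225, 261 and 244 units to 107, 92.4 and 95.3 units.

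In the eye, the lens crystallin genes crybb1 and cryba4 rose from background to 282, 264 and 331 and 190, 177 and 513 units, while rx3, which specifies the eye field, fell from 97.2, 80.9 and 73.1 units to 32.6, 24.1 and 22.1 units. The list of 32 retina and lens genes had 9 rises (28.1%) and 2 falls (6.25%), beside 21.7% and 25.1% of all genes, and 21 were not called. Without control array 1 there was 1 fall. Forebrain and pituitary genes had 15 rises and 4 falls among 30, and without array 6 these were 8 and 3, while 9 rose without array 4 and 2 fell without array 5 or control array 1. tbr1b, of pallial neurons, otpb, of hypothalamic neurons, and adcyap1b, a neuropeptide gene, were at least 2.90-fold, 7.71-fold and 6.62-fold higher. Hindbrain and midbrain-hindbrain genes had 12 falls (36.4%) and 6 rises (18.2%) among 33. egr2b, which marks rhombomeres, read 279, 262 and 253 units at 12 somites and 24.4, 24.2 and 25.8 units at 36 h (log2 difference -2.77 ± 0.11, adjusted p = 3.17e-07). pax2a, of the midbrain-hindbrain boundary, went from 141, 158 and 169 units to 52.8, 64.8 and 31.9 units, whereas en1b, of the same region, rose from 19.2, 17.3 and 14.8 units to 148, 127 and 131 units.

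Hox genes give position along the body, and both rises and falls were called in each block. Among paralog groups 1 to 4, 5 of 13 (38.5%) fell (3 without control array 3 or wild-type array 4 or 6) and 2 (15.4%) rose. Among groups 5 to 8, 3 of 12 (25%) fell and 1 (8.33%) rose (2 without control array 1 or wild-type array 5). Among groups 9 to 13, 9 of 17 (52.9%) fell and 4 (23.5%) rose. Of all genes 25.1% fell and 21.7% rose, so the falls in groups 5 to 8 were at the share of all genes. hoxb1a, of the hindbrain, went from 136, 156 and 138 units to 50.5, 48.2 and 60.8 units, and hoxc4a, of hindbrain and spinal cord, from 39.9, 31.8 and 39.96 units to 66.9, 76.8 and 82.4 units. hoxb8a rose from 53.6, 55.7 and 49.2 units to 216, 205 and 263 units (log2 difference 1.85 ± 0.13, adjusted p = 6.58e-06), and its cluster neighbour hoxb7a fell from 81.7, 94.7 and 107 units to 30.1, 31.0 and 27.2 units (log2 difference -1.29 ± 0.13, adjusted p = 4.82e-05). hoxc6b read 157, 166 and 159 units and then 31.5, 38.4 and 42.0 units, and hoxb10a 170, 188 and 179 units and then 41.4, 38.9 and 52.1 units. hoxc13a, the most posterior gene of its cluster, was at background at 12 somites and read 143, 157 and 132 units at 36 h, at least 6.00-fold higher (adjusted p = 7.55e-07). The groups were separate in each of the 7 genes named here, as at 53.8% of all probe sets. These genes were named for the size of their differences, which favours separation.

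Several pigment genes rose from the background range. gch2, a pteridine synthesis gene of yellow pigment cells and other pigment precursors, read 2.27, 9.48 and 1.08 units at 12 somites and 1172, 1057 and 1884 units at 36 h, at least 57.3-fold higher (adjusted p = 2.59e-07). dct, of melanin synthesis, read 23.0, 13.9 and 20.9 units and then 259, 213 and 354 units, and mitfa, the melanophore regulator gene, 1.28, 0.733 and 3.60 units and then 64.2, 62.9 and 61.4 units. slc2a15b, of yellow pigment cells, was at least 8.54-fold higher. Over the list of 26 pigment and crest genes, 7 (26.9%) rose and 7 (26.9%) fell, beside 21.7% and 25.1% of all genes. The general neural crest transcript crestin was -0.54 ± 0.14.

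Of 49 epidermal and keratin genes, 17 (34.7%) rose and 12 (24.5%) fell, beside 21.7% and 25.1% of all genes. At least 2-fold, 12 rose and 7 fell, and the median was 0.04. krt4, a surface keratin gene that is among the brightest probe sets, was not called, at 10457, 9276 and 8783 units and 10794, 10593 and 10038 units. krt1-19e rose from 1.44, 1.95 and 1.80 units to 566, 538 and 1331 units, at least 33.9-fold higher, and krt91 from 44.4, 25.3 and 30.6 units to 355, 330 and 835 units, with array 6 far above arrays 4 and 5 in both. icn and icn2, S100 family genes of skin, rose from 271, 225 and 280 and 594, 471 and 674 units to 3620, 3772 and 5035 and 3189, 3348 and 3492 units. krt99 fell, as given above. Among ionocyte and kidney genes, 14 of 29 rose and 5 fell. The sodium pump genes atp1a1a.2, atp1a1a.3 and atp1a1a.4 rose from background by at least 27.3-fold, 5.27-fold and 11.2-fold, and aqp3a, a water channel gene, by at least 24.02-fold. cdh17, a cadherin gene of kidney duct and gut, rose (log2 difference 2.84 ± 0.17, adjusted p = 2.76e-06), and hnf1bb, a regulator gene of hindbrain and kidney, fell (log2 difference -1.75 ± 0.14, adjusted p = 1.18e-05).

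Of 59 cartilage, bone and matrix genes, 21 (35.6%) rose and 15 (25.4%) fell, beside 21.7% and 25.1% of all genes. Their median was 0.28 and became 0.12 without array 6. col1a1a, a fibrillar collagen gene of skin and fin, read 43.6, 38.4 and 47.0 units at 12 somites and 1363, 1311 and 1998 units at 36 h (log2 difference 4.66 ± 0.16, adjusted p = 1.43e-07). col1a2, its partner chain, went from 66.6, 33.9 and 44.5 units to 686, 815 and 1024 units (3.72 ± 0.20), and postnb, the periostin gene, from 66.7, 74.7 and 73.1 units to 1359, 1398 and 2084 units (4.15 ± 0.17). All late arrays were above all early ones in these 3 genes, with array 6 the highest. Groups did not overlap at 53.8% of all probe sets. fn1b fell, as given above. matn4 and tnn, matrix protein genes, rose from background by at least 11-fold and 9.11-fold.

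Genes of the yolk layer, liver and gut rose in 34 of 66 cases and fell in 5 (3 without control array 1 or 2), 27 rising at least 2-fold, with a median of 0.50. apoea, an apolipoprotein gene, read 26.0, 22.2 and 18.3 units at 12 somites and 912, 785 and 1713 units at 36 h, at least 47.5-fold higher. fga and fgb, the fibrinogen chain genes, went from 16.4, 9.61 and 12.9 and 71.9, 34.9 and 27.5 units to 500, 536 and 563 and 736, 711 and 997 units. rbp4, the plasma retinol carrier gene, rose from 429, 241 and 236 units to 4288, 4311 and 4259 units (log2 difference 3.68 ± 0.21, adjusted p = 2.42e-06). hp, the haptoglobin gene, and vtnb, a vitronectin gene, were at least 9.78-fold and 11.9-fold higher. apoa1a was high at both stages (0.52 ± 0.11), and gata6, a regulator of endoderm and heart, fell (log2 difference -1.23 ± 0.13, adjusted p = 9.14e-05). In the pancreas list 8 of 23 genes rose and none fell by limma, 0 falling at an unadjusted p under 0.05 and 1 called without control array 2. ins, the insulin gene, went from 1.22, 1.69 and 5.52 units to 31.6, 31.0 and 38.6 units, at least 1.41-fold higher. Arrays 4 to 6 and array 1 differ in the sum of the yolk and liver list, as given above, and stage and sampled material cannot be told apart in its rise.

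Among signalling ligands and feedback genes 33 of 85 (38.8%) fell and 13 (15.3%) rose, with a median of -0.28. Falls included sp5l, a Wnt target gene of the tail (-1.94 ± 0.20), and rarga, a retinoic acid receptor gene (-1.51 ± 0.15), and the largest rise was bmp5 (1.60 ± 0.13). Among 37 heat shock and chaperone genes 12 (32.4%) rose and 7 (18.9%) fell, beside 21.7% and 25.1% of all genes. The 3 largest rises were of hsp90b1, pdia4 and pdia3, chaperone genes of the endoplasmic reticulum: hsp90b1 went from 59.7, 81.4 and 83.4 units to 438, 444 and 636 units, pdia4 from 78.9, 58.7 and 68.6 units to 391, 424 and 551 units and pdia3 from 143, 89.5 and 107 units to 512, 572 and 638 units. calr, the calreticulin gene, picked after its values were seen, was 1.45 ± 0.16, while hspa5 and canx, which encode chaperones of the same compartment, were not called, at 0.23 and -0.06 on the log2 scale. hspb1, a small heat shock protein gene, fell from 3169, 3425 and 3427 units to 881, 1007 and 871 units (log2 difference -1.98 ± 0.13, adjusted p = 3.77e-06), as did hsf1, given above. Immediate early genes gave 14 rises (36.8%) and 8 falls (21.1%) among 38, with fosab at least 4.27-fold higher and junbb at 1.31 ± 0.15. Without control array 1 or 3 or wild-type array 6 there were 5 falls. Of 27 circadian and light-response genes 5 (18.5%) rose and 6 (22.2%) fell, near the 21.7% and 25.1% of all genes. Among them bhlhe40 rose most (1.42 ± 0.14).

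**Figure D4:**
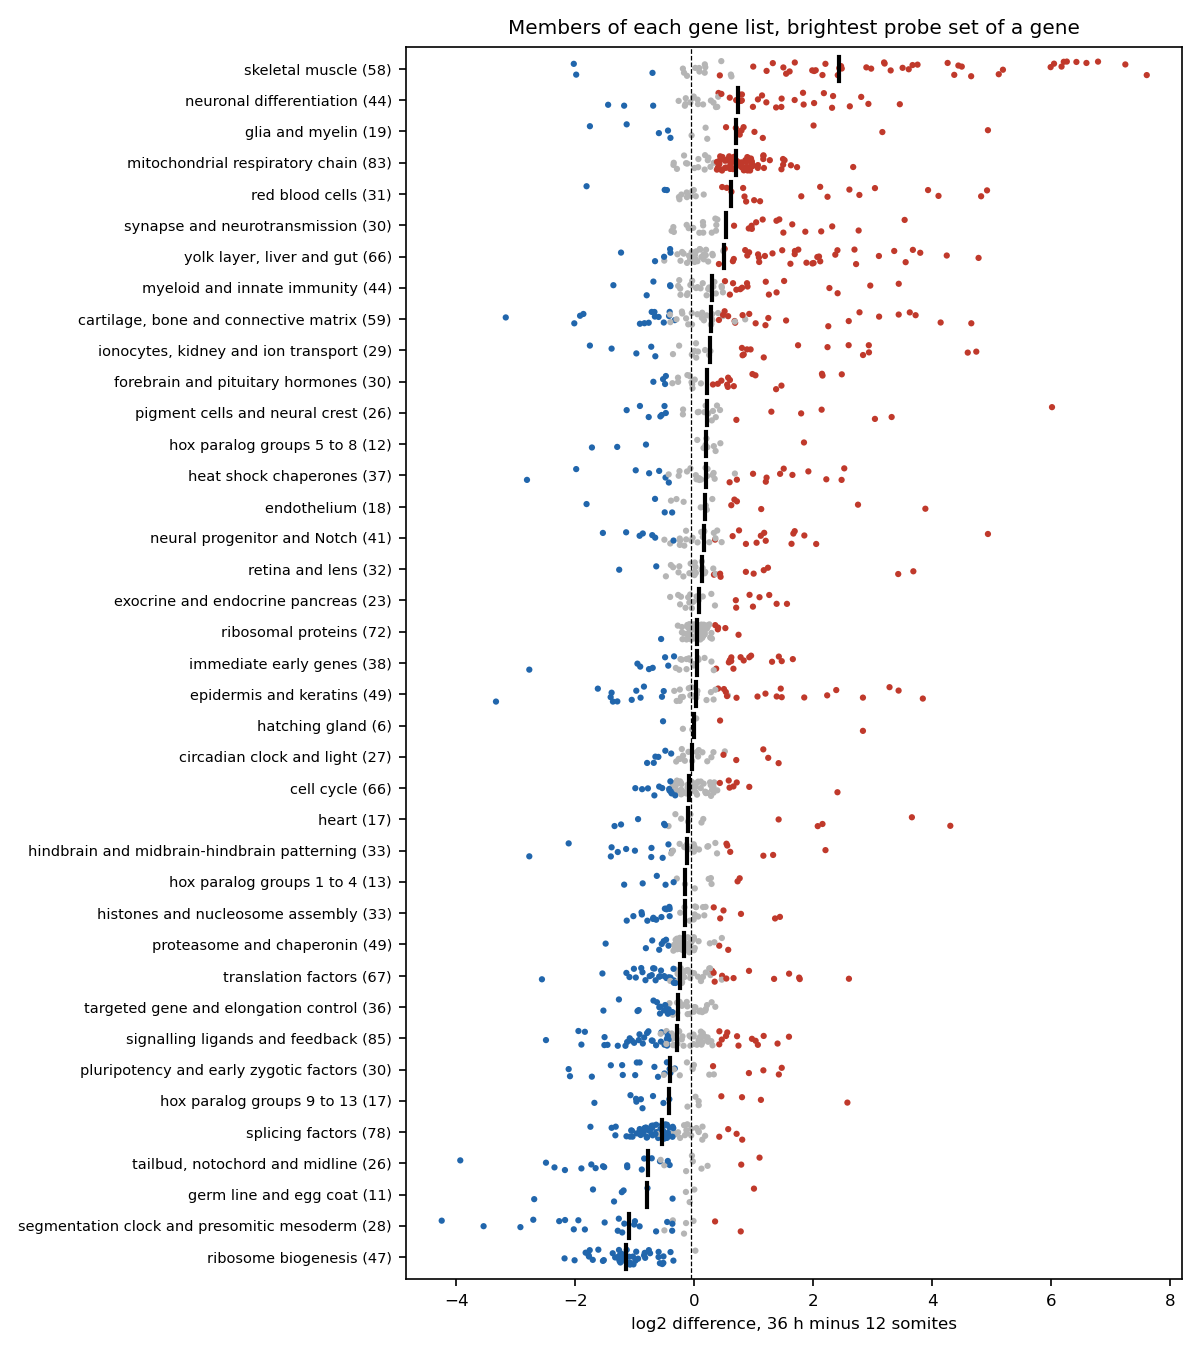
Log2 difference (36 h minus 12 somites) of every member of 39 gene lists, each gene by its brightest probe set, with the number of members in parentheses. Red points rose and blue points fell at an adjusted p under 0.05, grey points were not called, black bars are list medians and the dashed line is the median of all 8793 genes, -0.06. Skeletal muscle, with a median of 2.43, and ribosome biogenesis, with -1.14, mark the ends.

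The same 2 stages could be compared in 6 arrays that share none with the groups above. They are 3 arrays of 12-somite embryos injected with Foggy(DelCter) RNA and the 3 mutant-labelled 36 h arrays with label numbers 4 to 6. Genotype and injected RNA differ there from the groups above, so this comparison is not a replicate. Stage, material and injection cannot be told apart there either, so a shared direction does not single out stage. In those arrays 1117 probe sets (7.21%) rose and 897 (5.79%) fell at least 2-fold. The log2 differences of the 2 comparisons correlated with r of 0.829 over 15502 probe sets, given as a description, since all probe sets are read on the same arrays. Of the 1836 probe sets that changed 2-fold in the main comparison, 1210 (65.9%) did so in the other, where they are 60.1% of the 2014 that changed, and all 1210 had the same direction. The difference between the comparisons was itself called at 958 probe sets (6.18%).

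Each of the 30 genes with the largest changes had the same sign in both comparisons. These genes were chosen for their changes in the control and wild-type arrays, and the same values enter the test of the difference, so the choice itself favours a smaller change in the other arrays and nothing is read from the counts. For 10 of the 15 largest rises the rise was smaller in the Foggy(DelCter) and mutant-labelled arrays by limma's test of the difference, and for 3 of the 15 largest falls the fall was smaller. gch2 differed most. It was in the background range at 12 somites, with means of 4.28 units in the control and 4.36 units in the Foggy(DelCter) arrays, and had a mean of 7.69 units in the mutant-labelled and 1371 units in the wild-type arrays at 36 h. The contrast of the 2 log2 differences passed limma's test (adjusted p = 1.56e-07). Its size, given below with the flagged results, depends on the pseudocount because 3 of the 4 means lie near background. The tailbud genes msgn1, cdx4 and tbx16 had differences of -3.97 ± 0.23, -3.29 ± 0.18 and -3.38 ± 0.16 in the other arrays and were not shown to differ from the main comparison.

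Several lists read differently in these arrays, the cell cycle list among them. Of the 66 cell cycle genes, 39 fell and 5 rose in the Foggy(DelCter) and mutant-labelled arrays. There 23.7% of all probe sets fell and 20.8% rose. These shares, and the 6.18% below, are over all probe sets, while the lists take 1 probe set per gene, so the bases are not alike. The list's median log2 difference was -0.55, where the control and wild-type arrays gave 13 falls, 7 rises and a median of -0.08. The difference itself was called at 19 of the 66 by limma, beside 6.18% of all probe sets, and all 19 were lower in the Foggy(DelCter) and mutant-labelled comparison. mcm5, of the replicative helicase, was 0.05 ± 0.13 in the control and wild-type arrays and -1.37 ± 0.12 in the others (adjusted p of the difference = 0.000127). rrm1, a ribonucleotide reductase gene, was -0.03 ± 0.12 and -0.91 ± 0.13 (adjusted p = 0.00475), and kif11, a spindle motor gene, was -0.09 ± 0.11 and -1.05 ± 0.12 (adjusted p = 0.00119). mki67, by its brightest probe set, was 0.02 ± 0.12 and -0.65 ± 0.13 (adjusted p = 0.0311). These 4 genes and the lists in this paragraph were picked after their values were seen. The yolk layer, liver and gut list differed at 17 of 66 genes, and its medians were 0.50 and 0.99. Of the 17, 15 had the higher log2 difference in the Foggy(DelCter) and mutant-labelled arrays. Higher is meant with the sign, so a smaller fall counts as higher. The epidermal list differed at 12 of 49 genes, all 12 that way, among them krt99, which fell less there (-1.51 against -3.33). The red blood cell list differed at 13 of 31, 11 of them the other way, with medians of 0.63 and 0.07. Higher in the control and wild-type arrays, too, were 10 of 12 called differences among 26 pigment and crest genes. The same held for 13 of 15 among 58 skeletal muscle genes and 9 of 12 among 44 neuronal differentiation genes.

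**Figure D5:**
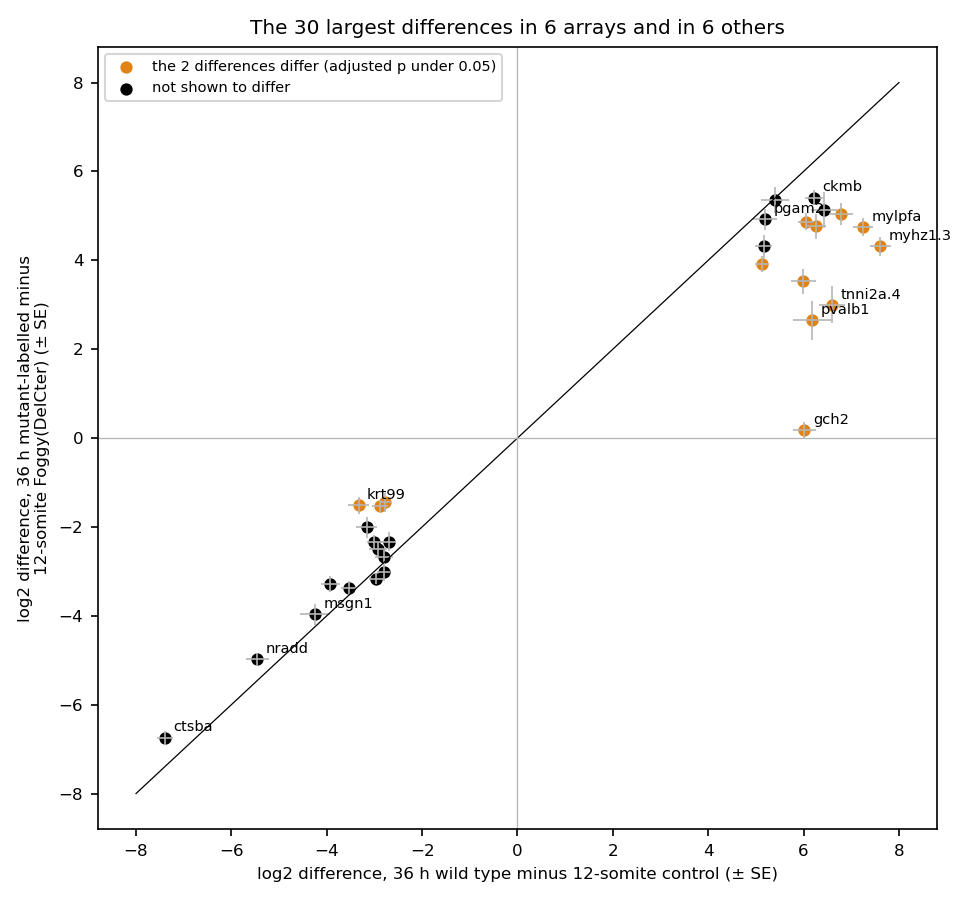
Log2 difference (± SE) of the 30 genes with the largest changes, in the control and wild-type arrays (horizontal axis) and in the Foggy(DelCter) and mutant-labelled arrays (vertical axis), with the line of equality. Orange points are the 13 genes whose 2 differences differ at an adjusted p under 0.05. gch2 lies far to the right and near 0 on the vertical axis, and positions of genes at background at 12 somites depend on the pseudocount.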

How the data were processed

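RNA of 16 zebrafish samples was read on 1-colour Affymetrix arrays, of which 6 are compared here. The deposited values are intensity on a linear scale, 1 per probe set and array, which the authors had scaled to the same 2% trimmed mean (150.04 units), a property found from the values. Which software summarised the probes is not stated in the sources used here. Scaling removes differences in total brightness and not in the shape of the distributions. Arrays have no sequencing depth, so the number of arrays and signal over background limit the precision.

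Groups were taken from the titles. Of 15617 probe sets 115 controls were left out, and 15502 were tested without a filter. Gene symbols came from the platform annotation, in which 10795 probe sets had 1 symbol, 135 several and 4572 none, and were updated through Entrez gene numbers in a RefSeq table of assembly GRCz12tu, which changed 1. Genes were named from probe sets with 1 symbol and lists were read through the brightest probe set of each of 8793 symbols.

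Values were taken as log2(intensity + 16), quantile normalized over the 6 arrays and tested 2-sided by limma 3.58.1 (lmFit, eBayes; R 4.3.3), with Benjamini-Hochberg adjustment over all 15502 probe sets. A call is an adjusted p under 0.05, and rose, fell or changed is written only of calls. Printed units are deposited intensities. The difference from the other 6 arrays was tested by a contrast fitted to the 12 arrays normalized together. The limma step, without the normalization, was tested on simulated data in which few probe sets changed.

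The 39 lists (1422 measured genes), the members and the tests were chosen with earlier results of these data known, so no list is independent evidence of its direction. Genes were named by rule: the 15 largest rises and 15 largest falls among genes called at 2-fold or more whose groups did not overlap and whose symbol is not a clone or locus name, the 6 members of each list with the largest log2 difference and the largest against the list's majority, all members of the segmentation clock, hatching gland and tailbud lists, supt5h, and the 6 genes nearest to no change among the 100 brightest. Genes outside the rule, such as mki67, gata1a, tal1, myod1, myog, crestin, calr, ncl, fbl and polr1b, were picked after their values were seen. The alternatives were other scalings, filters at the 30th and 60th percentile, pseudocounts of 1 and 64, another prior, a test against 2-fold, all 16 arrays in 1 fit, wild-type array 1 added, and each array left out. No sequence is shown, as none was used here.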

Additional observations from a re-analysis of the deposited data

Results flagged for a closer look

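For 13 of the 30 genes with the largest changes, the 36 h minus 12-somite difference itself differed between the control and wild-type arrays and the Foggy(DelCter) and mutant-labelled arrays, by limma's contrast with Benjamini-Hochberg adjustment over 15502 probe sets, where 6.18% were called. The 30 genes were chosen for their changes in the control and wild-type arrays, whose values enter this test, so the choice favours such differences and the count is not read against that share. The 2 log2 differences in brackets come from the 2 comparisons, normalized apart. Each value is the first log2 difference minus the other as estimated from the 12 arrays normalized together, with 3 arrays in each of the 4 groups. It can therefore depart slightly from the subtraction of the bracketed numbers. Among muscle genes, all of which rose in both comparisons, it was 3.29 for myhz1.3 (7.61 against 4.31, adjusted p = 4.38e-05), 2.54 for mylpfa (7.25 against 4.75, adjusted p = 0.000325) and 1.78 for mylz3 (6.79 against 5.04, adjusted p = 0.0147). It was 3.58 for tnni2a.4 (6.60 against 3.00, adjusted p = 0.00146), 1.54 for myl1 (6.27 against 4.76, adjusted p = 0.0284) and 3.52 for pvalb1 (6.18 against 2.65, adjusted p = 0.00579). The others were ckma at 1.23 (6.05 against 4.87, adjusted p = 0.0117), tnnt3a at 2.51 (5.99 against 3.53, adjusted p = 0.00285) and atp2a1 at 1.29 (5.12 against 3.91, adjusted p = 0.00544). Wild-type array 6 had the highest value in each of these 9 genes. The 12-somite control means of all of them but atp2a1 lay in the background range, so the size of these log2 values depends on the pseudocount. The means at 36 h, which were above background, were 4512 units in the wild-type and 380 units in the mutant-labelled arrays for myhz1.3 and 6424 units and 714 units for mylpfa.

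The pigment gene gch2 differed by 5.86 (6.02 against 0.17, adjusted p = 1.56e-07) and was not called in the Foggy(DelCter) and mutant-labelled arrays. Its means were 4.28 units and 4.36 units in the control and Foggy(DelCter) arrays and 1371 units and 7.69 units in the wild-type and mutant-labelled arrays, so these log2 values too depend on the pseudocount. Among the falls, krt99 differed by -1.88 (-3.33 against -1.51, adjusted p = 0.00303), tgm1l4 by -1.36 (-2.88 against -1.53, adjusted p = 0.0021) and egr2b by -1.38 (-2.77 against -1.45, adjusted p = 0.0047). The 36 h arrays of the 2 comparisons differ in labelled genotype and the 12-somite arrays in injected RNA.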

How the results depend on the processing

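The main counts were 2980 rises and 3668 falls, 1072 and 764 of them at least 2-fold. They stayed within 1.5 times these values on the deposited scale, with median centring, with a filter at the 30th percentile, with an intensity trend and robust prior and with all 16 arrays in 1 fit, where the 2-fold counts ran from 993 to 1075 and from 723 to 822. A filter at the 60th percentile, which tests fewer probe sets, gave 1666, 2259, 555 and 470. A pseudocount of 1 gave 1441 falls of 2-fold or more and a pseudocount of 64 gave 570 rises and 333 falls of that size, the pseudocount setting how far dim genes can move. A test against 2-fold left 477 rises and 184 falls. Adding wild-type array 1 gave 1590 rises and 2273 falls and turned apoa1a from 0.52 to -1.46 (adjusted p = 0.613), the only reversal among the 319 genes picked by the naming rule or later, not all of which the text prints, and 55 of their 284 calls were lost. Leaving out 1 array at a time gave 2545 to 2766 rises and 3033 to 3334 falls, with 1001 to 1134 and 695 to 853 at least 2-fold, and 18 of the 284 calls were lost at least once. None of the 30 largest changes lost its call under any setting run, wild-type array 1 included, although the 60th percentile filter left hsf1, mchr1b, snu13a, tbx6 and tgm1l4 untested. List medians moved by more than the spread between arrays in 2 of 39 lists on the deposited scale (ribosomal proteins and histones). They moved in 2 with median centring, in 11 with the 30th percentile filter and in 14 and 12 with pseudocounts of 1 and 64. With the mean over probe sets 3 moved, and with the other prior 0. With the 60th percentile filter 12 lists moved and 21 did not, and the remaining lists are in neither count. No paired analysis was possible because the control arrays carry the numbers 1 to 3 and the wild-type arrays the numbers 4 to 6, so the groups share no number. Values near the tag controls, up to 23.9 units, set only lower bounds.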

Other observations

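Many zebrafish genes have copies named a and b. Of 664 pairs of measured symbols that share a stem and end in a and b, not all of which are copies of 1 gene, 4 pairs were called at 2-fold or more in opposite directions, where 8.13% of all genes rose and 5.28% fell that far. In 26 pairs both members were called at that size in the same direction, in 142 only 1 member was and in 492 neither was. Whether 4 is more than unrelated genes would give was not tested. The 4 pairs were picked after values had been seen. Besides eif4a1a and eif4a1b, described above, they were anxa2a and anxa2b, annexin genes, lgals3a and lgals3b, galectin genes, and inaa and inab, genes of a neuronal intermediate filament. anxa2a had mean intensities of 171 units at 12 somites and 397 units at 36 h, and anxa2b 38.7 units and 4.74 units, the last in the background range. lgals3a had mean intensities of 409 units at 12 somites and 184 units at 36 h, and lgals3b 175 units and 391.8 units. inaa went from 48.8 units to 8.18 units, in the background range, and inab from 6.04 units, also in that range, to 85.3 units. The second probe set of lgals3a had a log2 difference of 0.72, opposite to the brighter one, so the direction of that copy is uncertain. Whether probes of a pair bind both copies was not tested.

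Of 1539 genes with several probe sets, cdc25b, which encodes a phosphatase that drives entry into mitosis, was the gene with probe sets called at 2-fold or more in both directions, at -1.57 and 1.46 on the log2 scale, and another at 0.42.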
